A study of Mus musculus with 12 samples.

Results

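The genes described here were *Plvap*, *Mfsd2a*, *Cav1*, *Cav2*, *Cavin1*, *Cavin2*, *Cavin3* and *Tfrc*, 8 genes of vesicular transport through endothelium that were listed by name and matched by gene symbol. All 8 were present among the 49315 genes of the count files, and all 8 were among the 16637 genes that passed the filter on low counts. RNA was sequenced from CD31+ endothelial cells (negative for CD140b, CD45 and 7-AAD) sorted from mouse forebrains at E15.5, with 1 embryo per library. 4 libraries came from wild-type embryos. 4 libraries came from *Gpr124ΔC/ΔC* embryos, homozygous for a CRISPR knock-in allele in which a V5 tag and a stop codon precede the intracellular domain of GPR124, so that the receptor ends shortly after its last transmembrane segment. The remaining 4 came from *Gpr124-/-* embryos, homozygous for a *lacZ* allele. Homozygotes of each allele came from intercrosses of heterozygotes, and both alleles are carried by every cell of the embryo and not by endothelium alone. The truncated receptor is also present in smaller amounts as a protein, so loss of the domain and a lower receptor level cannot be told apart in *Gpr124ΔC/ΔC*. The comparisons asked how far this truncated allele, set beside loss of the whole receptor, changed the endothelial transcriptome at the time the blood-brain barrier forms.

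Continuous brain capillaries are known for a low rate of vesicular transport. MFSD2A is a carrier of lysophosphatidylcholine lipids that restrains the formation of caveolae, PLVAP builds the diaphragms of caveolae and fenestrae and is known from immature and fenestrated vessels, caveolins and cavins build the caveolar coat, and the transferrin receptor TFRC takes up iron-loaded transferrin through clathrin-coated pits. GPR124 works together with RECK as a co-activator of WNT7 signaling through β-catenin in brain endothelium.

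Total counts ran from 13877572 to 22551163 per library, with a median of 16984382. *Adgra2*, the official symbol of *Gpr124*, lay between 28.3 and 51.1 TPM (transcript abundance scaled to gene length and to the library total) in wild type, between 34.1 and 63.4 TPM in *Gpr124ΔC/ΔC* and between 4.03 and 6.29 TPM in *Gpr124-/-*, so that every *Gpr124-/-* embryo was below every other embryo. The truncation itself cannot be read from a gene total. The summed level of 12 endothelial markers was 6338 to 7947 TPM in wild type, 5813 to 8868 TPM in *Gpr124ΔC/ΔC* and 7020 to 8414 TPM in *Gpr124-/-*. Of these 12, 5 were higher in *Gpr124-/-* than in wild type, led by *Emcn* at a log2 fold change of 1.26 (*Cdh5* 0.74, *Robo4* 0.69, *Pecam1* 0.54, *Cd34* 0.34), and *Tek* (−0.73) and *Erg* (−0.41) were lower, while in *Gpr124ΔC/ΔC* *Emcn* (0.59) alone passed. At this threshold, an adjusted p below 0.05 (edgeR), 10.5% of all genes tested were higher and 9.32% lower in *Gpr124-/-*. In *Gpr124ΔC/ΔC* 1.85% were higher and 2.24% lower, and these shares apply to the other marker lists below. The summed level of 12 erythroid markers was 7091 to 11825, 5501 to 9938 and 17943 to 54448 TPM in wild type, *Gpr124ΔC/ΔC* and *Gpr124-/-*. In the same order, that of 8 platelet markers was 278 to 559, 390 to 531 and 569 to 1812 TPM. Sums of 10 microglia and macrophage markers were 12.6 to 21.6, 18.4 to 40.0 and 40.2 to 69.0 TPM, of which 3 were tested and *Fcer1g* alone was higher in *Gpr124-/-*. Sums of 8 neuron markers were 59.0 to 137, 83.5 to 159 and 139 to 191 TPM, with 2 higher in *Gpr124-/-*. The sum of 8 neural progenitor markers was 583 to 633, 727 to 855 and 908 to 1082 TPM, most of it *Vim*, which endothelium also expresses (means of 487, 665 and 813 TPM), while *Slc1a3* was lower in both mutants and the other 6 did not pass against wild type. Sums of 10 pericyte markers were 42.6 to 99.1, 23.4 to 49.4 and 44.5 to 53.6 TPM, with *Abcc9* higher (2.66) and *Rgs5* lower (−1.47) in *Gpr124-/-* and *Higd1b* lower (−1.54) in *Gpr124ΔC/ΔC*, and sums of 8 fibroblast markers were 13.4 to 68.9, 9.22 to 19.0 and 13.1 to 15.9 TPM, with *Pdgfra* lower in *Gpr124-/-* (−2.55). The pericyte counts in *Gpr124-/-*, 1 higher and 1 lower of 10, were near the shares of all genes. The short non-coding gene *Gm23935* took up 12.5% of all TPM in wild-type embryo JE6 and 14.1% in *Gpr124ΔC/ΔC* embryo JE3, against 1.22% to 3.04% in the other libraries, which lowers every other TPM value of these libraries. Each embryo label starts with a letter of unstated meaning: J (2 wild-type and 2 *Gpr124ΔC/ΔC* embryos), K (1 wild-type and 1 *Gpr124-/-*), L (1 wild-type and 2 *Gpr124ΔC/ΔC*) or M (3 *Gpr124-/-*). No letter therefore held both mutants, and genotype and letter cannot be told apart for the M embryos.

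*Plvap*, at chr8:71497765-71511752 on the minus strand (GRCm38), was the most abundant of the 8 genes in *Gpr124-/-* and rose 10.6-fold over wild type in mean TPM. In wild-type embryos JE1, JE6, KE8 and LE6 its level was 487, 427, 83.4 and 147 TPM. In *Gpr124ΔC/ΔC* embryos JE3, JE4, LE2 and LE5 it was 1356, 1378, 333 and 329 TPM. In *Gpr124-/-* embryos KE4, ME1, ME4 and ME5 it was 1710, 2938, 3381 and 4046 TPM. Every *Gpr124-/-* embryo was thus above every embryo of the other genotypes, whereas *Gpr124ΔC/ΔC* and wild type overlapped, because the L embryos of *Gpr124ΔC/ΔC* lay below the J embryos of wild type. Means were 286 ± 201, 849 ± 598 and 3019 ± 984 TPM (SD, n = 4 each).

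In *Gpr124-/-* against wild type the log2 fold change of *Plvap* was 3.33 (SE 0.68, adjusted p = 0.00377, quasi-likelihood test of edgeR, adjusted by the Benjamini-Hochberg method over all genes tested). In *Gpr124ΔC/ΔC* against wild type it was 1.52 (SE 0.64, 95% interval 0.13 to 2.90) and did not pass after adjustment (adjusted p = 0.283, edgeR). Between the mutants it was 1.82 (SE 0.64, 95% interval 0.42 to 3.21), which also did not pass (adjusted p = 0.106, edgeR). In bulk samples of this kind, fewer cells of a type and less RNA per cell cannot be told apart, here and in all results that follow.

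The spread of *Plvap* within wild type and *Gpr124ΔC/ΔC* followed the letter of the embryo label. Both wild-type J embryos were higher than the K and L embryos of wild type, and both *Gpr124ΔC/ΔC* J embryos were higher than both *Gpr124ΔC/ΔC* L embryos. In a fit with label letter as a covariate, *Plvap* was lower in L than in J by a log2 difference of −2.03 (SE 0.14, adjusted p = 2.19e-06, edgeR), and of the other 7 genes *Tfrc* alone passed this comparison (0.98, SE 0.22, adjusted p = 0.00857, edgeR). Of all genes tested, 10.7% passed it. The contrast of L with J was added after the data were seen. Its p value for *Plvap* thus describes the pattern above and is no independent test of it. In that fit the *Plvap* fold change of *Gpr124ΔC/ΔC* against wild type was 1.35 with an SE of 0.13 (adjusted p = 3.12e-05, edgeR), with adjusted p values of 3.12e-05 to 0.535 across the 24 alternatives computed. Within letter J the log2 difference was 1.53 (2 against 2 embryos) and within letter L it was 1.07 (2 against 1). Between the mutants the fit gave 2.96 (SE 0.28, adjusted p = 0.00120, edgeR; 0.00105 to 0.237 over the alternatives), and against wild type it gave 4.31 for *Gpr124-/-*, both resting on the single K pair. What the letter stands for was not tested.

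Vessels of the choroid plexus are fenestrated, so markers of its epithelium were read beside *Plvap*. The summed level of 10 such markers was 1640 and 1063 TPM in *Gpr124ΔC/ΔC* embryos JE3 and JE4 and 161 and 283 TPM in LE2 and LE5. In wild type it was 241, 847, 547 and 128 TPM in JE1, JE6, KE8 and LE6, and in *Gpr124-/-* it was 272, 177, 113 and 414 TPM in KE4, ME1, ME4 and ME5. The sum was thus high in the *Gpr124ΔC/ΔC* J embryos, where *Plvap* was high, and not in *Gpr124-/-*, where *Plvap* was highest. In wild type the orders differed, since KE8, with the lowest *Plvap* (83.4 TPM), had a higher sum than JE1, with the highest (487 TPM). None of the 10 markers was without reads in any genotype, and *Ttr*, the most abundant, averaged 413 TPM in wild type, 739 TPM in *Gpr124ΔC/ΔC* and 153 TPM in *Gpr124-/-*. Of the 8 markers tested, *Aqp1* rose in *Gpr124-/-* against wild type (3.79, SE 0.52, adjusted p = 0.000197, edgeR), and the other 7 had negative log2 fold changes that did not pass, with a median of −1.24 over the list. The part of choroid plexus RNA in the letter difference was not tested.

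**Figure D1:**
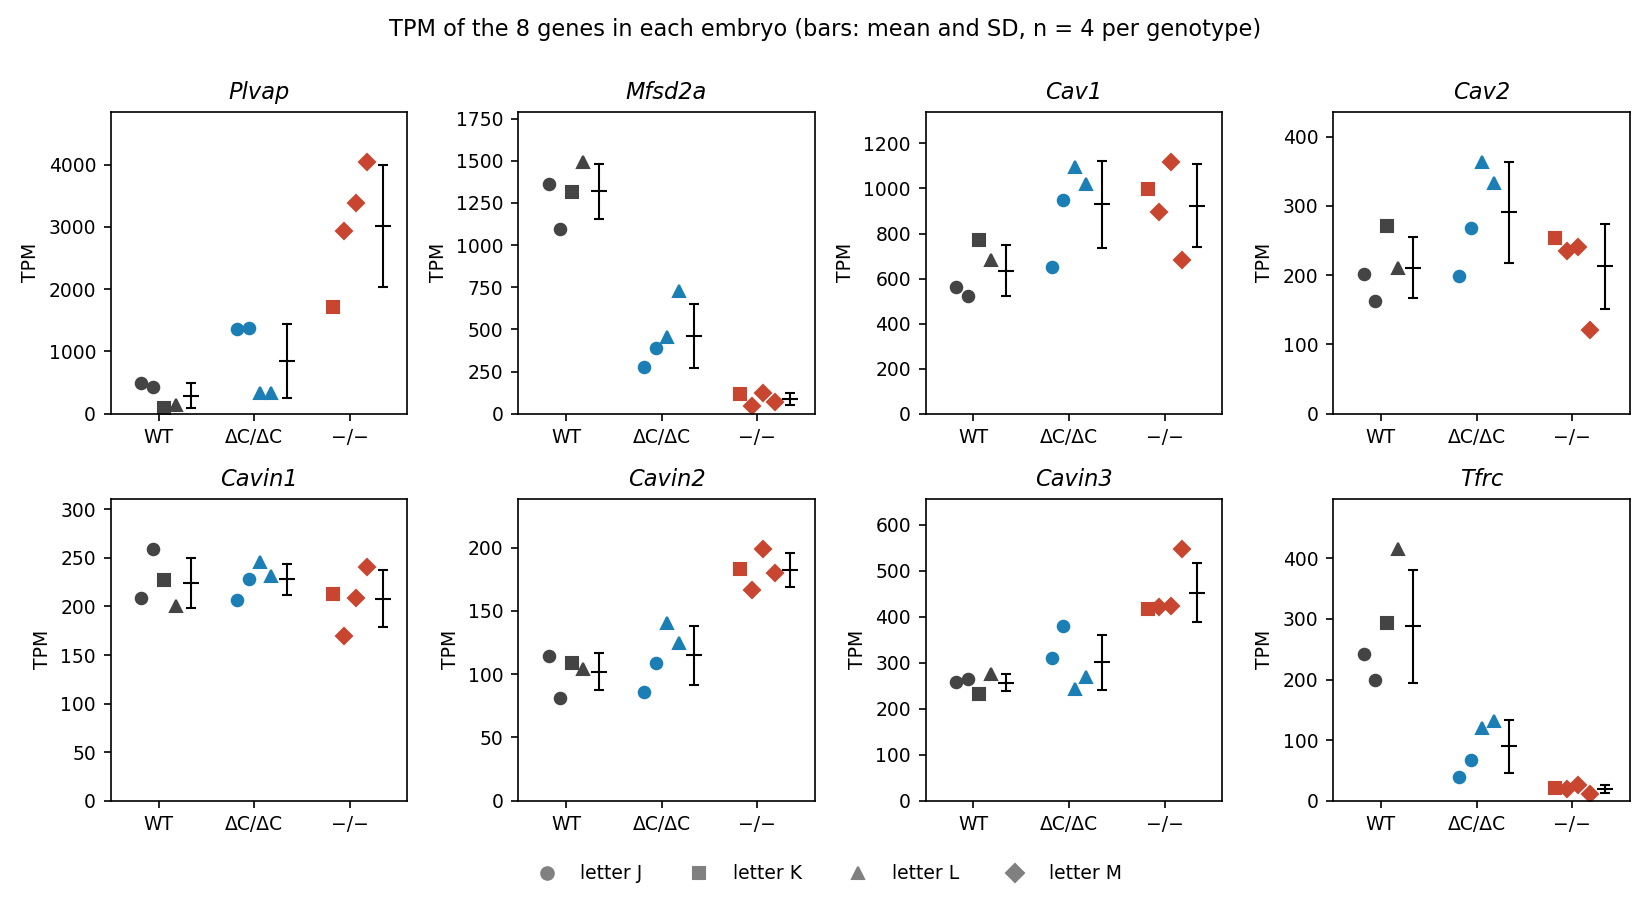
TPM of the 8 genes on linear axes that start at 0, 1 panel per gene, with 1 point per embryo grouped by genotype; the point's shape gives the letter that starts the embryo's label, and bars give the mean and SD of 4 embryos. *Plvap* lay between 1710 and 4046 TPM in the *Gpr124-/-* embryos and between 83.4 and 487 TPM in wild type, whereas *Mfsd2a* and *Tfrc* ran the other way.

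*Mfsd2a*, at chr4:122946850-122961188 on the minus strand, was the most abundant of the 8 genes in wild type and fell in both mutants. Its level was 1362, 1098, 1317 and 1493 TPM in wild-type embryos JE1, JE6, KE8 and LE6. In *Gpr124ΔC/ΔC* embryos JE3, JE4, LE2 and LE5 it was 276, 387, 453 and 724 TPM. In *Gpr124-/-* embryos KE4, ME1, ME4 and ME5 it was 114, 45.7, 121 and 69.8 TPM. The 3 genotypes did not overlap, with *Gpr124ΔC/ΔC* between wild type and *Gpr124-/-* in every embryo. Mean TPM was 0.349 of the wild-type mean in *Gpr124ΔC/ΔC* and 0.0665 of it in *Gpr124-/-*. Relative to wild type, log2 fold changes were −3.96 in *Gpr124-/-* (SE 0.30, adjusted p = 1.86e-06, edgeR) and −1.62 in *Gpr124ΔC/ΔC* (SE 0.28, adjusted p = 0.00443, edgeR), and between the mutants the value was −2.35 (SE 0.28, adjusted p = 0.000447, edgeR). With label letter as a covariate the comparison between the mutants was −1.83 and no longer passed (adjusted p = 0.124, edgeR; 4.77e-14 to 0.124 over the alternatives). Within letters, *Mfsd2a* was lower in *Gpr124ΔC/ΔC* than in wild type by a log2 difference of −1.95 in J and −1.48 in L, and lower in *Gpr124-/-* by −3.58 in the K pair. Without the J libraries the *Gpr124ΔC/ΔC* difference was −1.35 and did not pass (adjusted p = 0.172, edgeR; 7.45e-07 to 0.172 over the alternatives).

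*Tfrc*, at chr16:32608920-32632794 on the plus strand, fell in both mutants to nearly the same shares of wild type as *Mfsd2a*. Its level was 243, 200, 294 and 416 TPM in wild-type embryos JE1, JE6, KE8 and LE6. In *Gpr124ΔC/ΔC* embryos JE3, JE4, LE2 and LE5 it was 39.1, 67.3, 120 and 132 TPM. In *Gpr124-/-* embryos KE4, ME1, ME4 and ME5 it was 20.7, 18.9, 26.5 and 10.6 TPM. Again the 3 genotypes did not overlap, and within *Gpr124ΔC/ΔC* the J embryos were lower than the L embryos, the opposite order to *Plvap*. Mean TPM was 0.311 of wild type in *Gpr124ΔC/ΔC* and 0.0666 of it in *Gpr124-/-*.

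The log2 fold change of *Tfrc* was −3.95 (SE 0.36, adjusted p = 7.62e-06, edgeR) in *Gpr124-/-* and −1.79 (SE 0.33, adjusted p = 0.00726, edgeR) in *Gpr124ΔC/ΔC* against wild type. The *Gpr124ΔC/ΔC* value did not pass in limma on TPM without a filter, at a similar size (−1.77, adjusted p = 0.0662; −2.03 to −1.57 and 2.65e-06 to 0.0662 over the alternatives). Between the mutants it was −2.16 (SE 0.34, adjusted p = 0.00211, edgeR), which did not pass with label letter as a covariate (−1.86, adjusted p = 0.0726, edgeR; 5.29e-09 to 0.0726 over the alternatives). Within letters the log2 difference from wild type was −2.15 in J and −1.82 in L for *Gpr124ΔC/ΔC*, and −3.87 in the K pair for *Gpr124-/-*. Red cell precursors carry much TFRC, and 6 of the 11 erythroid markers tested were higher in *Gpr124-/-* than in wild type, where 10.5% of all genes were. None of these markers was without reads in any genotype. *Tfrc* was thus lowest in the genotype with the highest erythroid sums. The part of erythroid RNA in its level was not tested.

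The sequence just upstream of transcription is shown for *Mfsd2a* and *Tfrc*, the members that fell together in both mutants. Each is the run of 250 bases before the RefSeq start of transcription (GRCm38.p6), given 5′ to 3′ on the strand of the gene, with capitals at matches to CTTTGA or CTTTGT, the core letters bound by TCF/LEF factors, searched on both strands.
*Mfsd2a* promoter, chr4:122961189-122961438, minus strand: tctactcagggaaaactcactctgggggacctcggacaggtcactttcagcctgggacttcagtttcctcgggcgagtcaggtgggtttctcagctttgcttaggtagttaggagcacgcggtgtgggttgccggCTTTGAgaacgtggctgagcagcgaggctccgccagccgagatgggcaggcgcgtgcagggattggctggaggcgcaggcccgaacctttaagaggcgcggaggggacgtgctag
*Tfrc* promoter, chr16:32608646-32608895, plus strand: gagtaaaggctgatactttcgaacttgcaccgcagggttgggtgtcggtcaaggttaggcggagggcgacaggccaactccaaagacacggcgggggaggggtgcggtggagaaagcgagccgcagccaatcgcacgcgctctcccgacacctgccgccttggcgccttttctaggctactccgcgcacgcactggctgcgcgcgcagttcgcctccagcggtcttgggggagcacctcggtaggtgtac
The *Mfsd2a* window held 1 match, which begins 115 bases before the start, and the *Tfrc* window held none of these letters. The table gives 2 starts for *Tfrc*, and the window shown is that of the start nearer to the gene start in the files, at 24 bases from it. The window of the other start, at 202 bases from it, held no match either. Entries were found for 6 of the 8 genes, without *Plvap* and *Cavin3*, and among those 6 the *Mfsd2a* match was the single one. Of 32851 promoter windows of this length in the same table, 27.6% held at least 1 match, so a match of this kind is common, and it is a description and not a binding site.

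**Figure D2:**
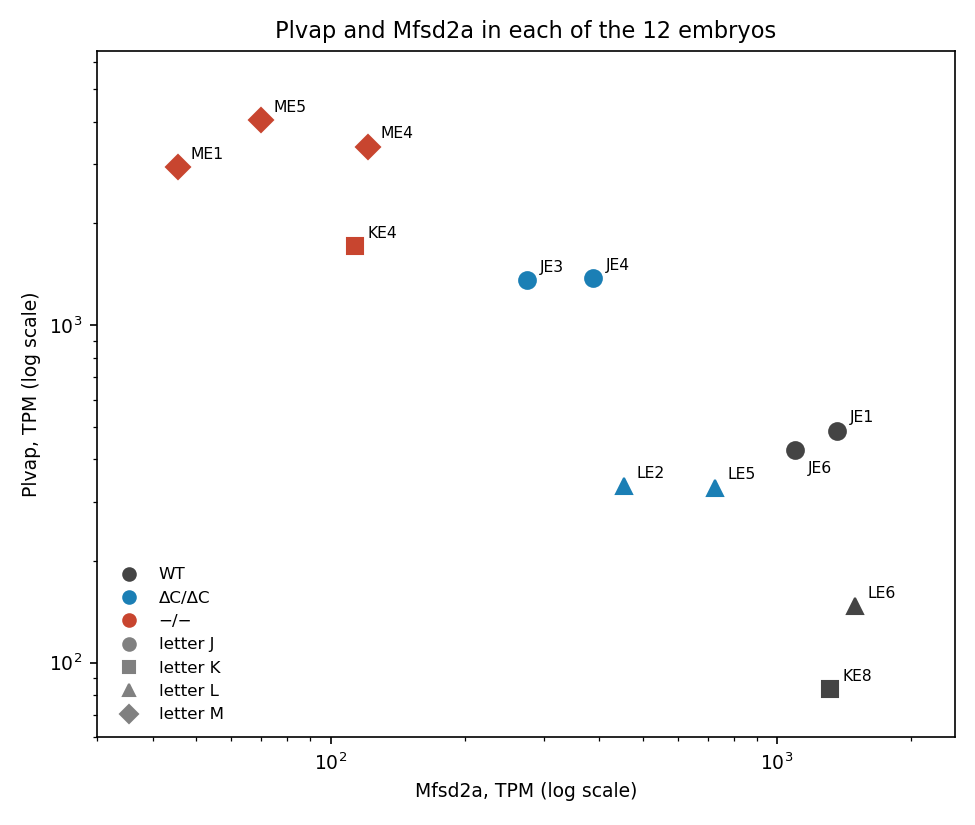
*Plvap* against *Mfsd2a* in TPM on 2 log axes, 1 point per embryo, with color for genotype and shape for the letter that starts its label. The *Gpr124-/-* embryos lie at the upper left and wild type at the lower right, and the *Gpr124ΔC/ΔC* J embryos JE3 and JE4 lie above the *Gpr124ΔC/ΔC* L embryos LE2 and LE5 and closer to *Gpr124-/-*.

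Set against each other within an embryo, the TPM ratio of *Plvap* to *Mfsd2a* was 0.0633 to 0.389 in wild type, 0.455 to 4.91 in *Gpr124ΔC/ΔC* and 15.0 to 64.3 in *Gpr124-/-*. The ranges did not overlap, and neither did those of *Mfsd2a* alone, whereas those of *Plvap* alone overlapped for *Gpr124ΔC/ΔC* and wild type. Among all genes ordered by mean TPM, *Plvap* stood at place 575 in wild type, 135 in *Gpr124ΔC/ΔC* and 19 in *Gpr124-/-*. *Mfsd2a* moved from place 60 to 320 and 2137, and *Tfrc* from 564 to 2113 and 6841. In wild type the order of mean TPM was *Mfsd2a*, *Cav1*, *Tfrc*, *Plvap*, *Cavin3*, *Cavin1*, *Cav2* and *Cavin2*, where *Tfrc* to *Cav2* were neighbors whose ranges overlapped. In *Gpr124-/-* it was *Plvap*, *Cav1*, *Cavin3*, *Cav2*, *Cavin1*, *Cavin2*, *Mfsd2a* and *Tfrc*, where the overlapping neighbors were *Cav2*, *Cavin1* and *Cavin2*. In *Gpr124ΔC/ΔC* every pair of neighbors overlapped except *Cavin1* and *Cavin2*.

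The caveolins changed less. *Cav1*, the membrane protein that caveolae of endothelium cannot form without, was at 561, 524, 773 and 680 TPM in wild-type embryos JE1, JE6, KE8 and LE6. In *Gpr124ΔC/ΔC* embryos JE3, JE4, LE2 and LE5 it was at 653, 950, 1096 and 1019 TPM, and in *Gpr124-/-* embryos KE4, ME1, ME4 and ME5 at 997, 896, 1118 and 683 TPM. Both mutants overlapped wild type. The log2 fold change was 0.50 in *Gpr124-/-* (SE 0.14, adjusted p = 0.0246, edgeR) and 0.46 in *Gpr124ΔC/ΔC* (SE 0.14, 95% interval 0.16 to 0.77, adjusted p = 0.102, edgeR). The first of these did not pass without wild-type embryo JE1, JE6 or LE6 or without *Gpr124-/-* embryo KE4, ME1 or ME4 (log2 fold changes of 0.41 to 0.51, adjusted p from 0.0504 to 0.0802, edgeR). Nor did it pass in the 4 limma fits on TPM, where its size was similar (0.50 to 0.53). It was smaller and did not pass without the J libraries (0.35, adjusted p = 0.150, edgeR) or with label letter as a covariate (0.32, adjusted p = 0.604, edgeR; 0.00362 to 0.604 over the alternatives). The *Gpr124ΔC/ΔC* value passed with that covariate (0.51, adjusted p = 0.0381, edgeR) and without *Gpr124-/-* embryo ME5 (0.47, adjusted p = 0.0334, edgeR), with adjusted p values of 0.0334 to 0.434 over the alternatives.

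*Cav2*, which joins CAV1 in the coat, lies 17.2 kb before *Cav1* on chromosome 6 (chr6:17281185-17289115 and chr6:17306335-17341452, both on the plus strand). Its means were 211 ± 44.7, 291 ± 73.1 and 213 ± 61.4 TPM (SD, n = 4 each) in wild type, *Gpr124ΔC/ΔC* and *Gpr124-/-*. It passed in no comparison, with 95% intervals of its log2 fold change from −0.47 to 0.41 in *Gpr124-/-* and from −0.07 to 0.81 in *Gpr124ΔC/ΔC* against wild type (adjusted p = 0.947 and 0.475, edgeR). The ratio of *Cav1* to *Cav2* TPM was 2.78 to 3.24 in wild type, 3.02 to 3.55 in *Gpr124ΔC/ΔC* and 3.81 to 5.63 in *Gpr124-/-*, so the *Gpr124-/-* embryos lay above both other genotypes in this ratio. That of *Cav1* to *Cavin1* was 2.02 to 3.40, 3.16 to 4.46 and 2.84 to 5.36 in the same order, so all genotypes overlapped. That of *Plvap* to *Cav1* overlapped between the mutants, at 0.304 to 2.08 in *Gpr124ΔC/ΔC* and 1.72 to 5.93 in *Gpr124-/-*. How often ratios of other gene pairs overlap was not computed.

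Of the cavins, which coat the cytoplasmic side of caveolae, *Cavin2* and *Cavin3* rose in *Gpr124-/-* and *Cavin1* did not pass. *Cavin1* (chr11:100956733-100970887, minus strand), the cavin needed for caveolae in all tissues, averaged 224 ± 26.1, 228 ± 16.0 and 208 ± 29.0 TPM (SD, n = 4 each) in wild type, *Gpr124ΔC/ΔC* and *Gpr124-/-*. The 95% interval of its log2 fold change was −0.43 to 0.11 in *Gpr124-/-* and −0.34 to 0.21 in *Gpr124ΔC/ΔC* against wild type (adjusted p = 0.447 and 0.927, edgeR). Among the *Gpr124ΔC/ΔC* embryos its coefficient of variation, 7.01%, was the smallest of the 8 genes.

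*Cavin2* (chr1:51289126-51302960, plus strand), which helps to bend the membrane and is abundant in endothelium and platelets, was at 115, 80.8, 109 and 104 TPM in wild-type embryos JE1, JE6, KE8 and LE6. In *Gpr124ΔC/ΔC* embryos JE3, JE4, LE2 and LE5 it was at 85.8, 109, 140 and 124 TPM. In *Gpr124-/-* embryos KE4, ME1, ME4 and ME5 it was at 183, 166, 199 and 180 TPM. The *Gpr124-/-* embryos lay above all others. The log2 fold change was 0.80 in *Gpr124-/-* against wild type (SE 0.10, adjusted p = 0.000131, edgeR), 0.72 between the mutants (SE 0.10, adjusted p = 0.00132, edgeR) and 0.08 in *Gpr124ΔC/ΔC* against wild type (95% interval −0.14 to 0.31, adjusted p = 0.857, edgeR). The *Gpr124-/-* result did not pass with label letter as a covariate, at a similar size (0.70, adjusted p = 0.0634, edgeR; 1.21e-10 to 0.0634 over the alternatives), nor did the result between the mutants (0.64, adjusted p = 0.292, edgeR; 3.38e-08 to 0.292 over the alternatives). Beside it, 7 of 8 platelet markers, among them *Itga2b*, were higher in *Gpr124-/-* than in wild type, where 10.5% of all genes were. None of these markers was without reads in any genotype. Platelet sums were 317, 289, 278 and 559 TPM in wild-type embryos JE1, JE6, KE8 and LE6. In *Gpr124-/-* embryos KE4, ME1, ME4 and ME5 they were 569, 1812, 1272 and 1758 TPM. The part of platelet RNA in the level of *Cavin2* was not tested.

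*Cavin3* (chr7:105480083-105482300, minus strand), which binds to CAVIN1 in the coat, was at 257, 264, 233 and 274 TPM in wild-type embryos JE1, JE6, KE8 and LE6. In *Gpr124ΔC/ΔC* embryos JE3, JE4, LE2 and LE5 it was at 311, 380, 242 and 269 TPM, overlapping wild type. In *Gpr124-/-* embryos KE4, ME1, ME4 and ME5 it was at 418, 422, 423 and 548 TPM, above all others. The log2 fold change was 0.78 in *Gpr124-/-* against wild type (SE 0.17, adjusted p = 0.00499, edgeR), 0.62 between the mutants (SE 0.17, adjusted p = 0.0353, edgeR) and 0.16 in *Gpr124ΔC/ΔC* against wild type (95% interval −0.20 to 0.51, adjusted p = 0.816, edgeR). With label letter as a covariate the *Gpr124-/-* fold change was 0.80 and did not pass (adjusted p = 0.0920, edgeR; 0.000269 to 0.0920 over the alternatives). The result between the mutants did not pass without *Gpr124ΔC/ΔC* embryo LE2 or LE5 or *Gpr124-/-* embryo ME1, ME4 or ME5, or in 5 further alternatives, at a similar size (0.50 to 0.94 over all 24 alternatives, and 0.68 with label letter as a covariate, where the adjusted p was 0.439, edgeR; 0.00560 to 0.439 over the alternatives). *Gm45667*, whose exons overlap those of *Cavin3* on the opposite strand, had 1 to 11 reads against 1801 to 5555 for *Cavin3*. Relative to *Cavin1* in the same embryo, *Cavin3* was at 1.02 to 1.37 times in wild type, 0.987 to 1.66 times in *Gpr124ΔC/ΔC* and 1.96 to 2.48 times in *Gpr124-/-*, and *Cavin2* at 0.312 to 0.548, 0.415 to 0.572 and 0.749 to 0.978 times.

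**Figure D3:**
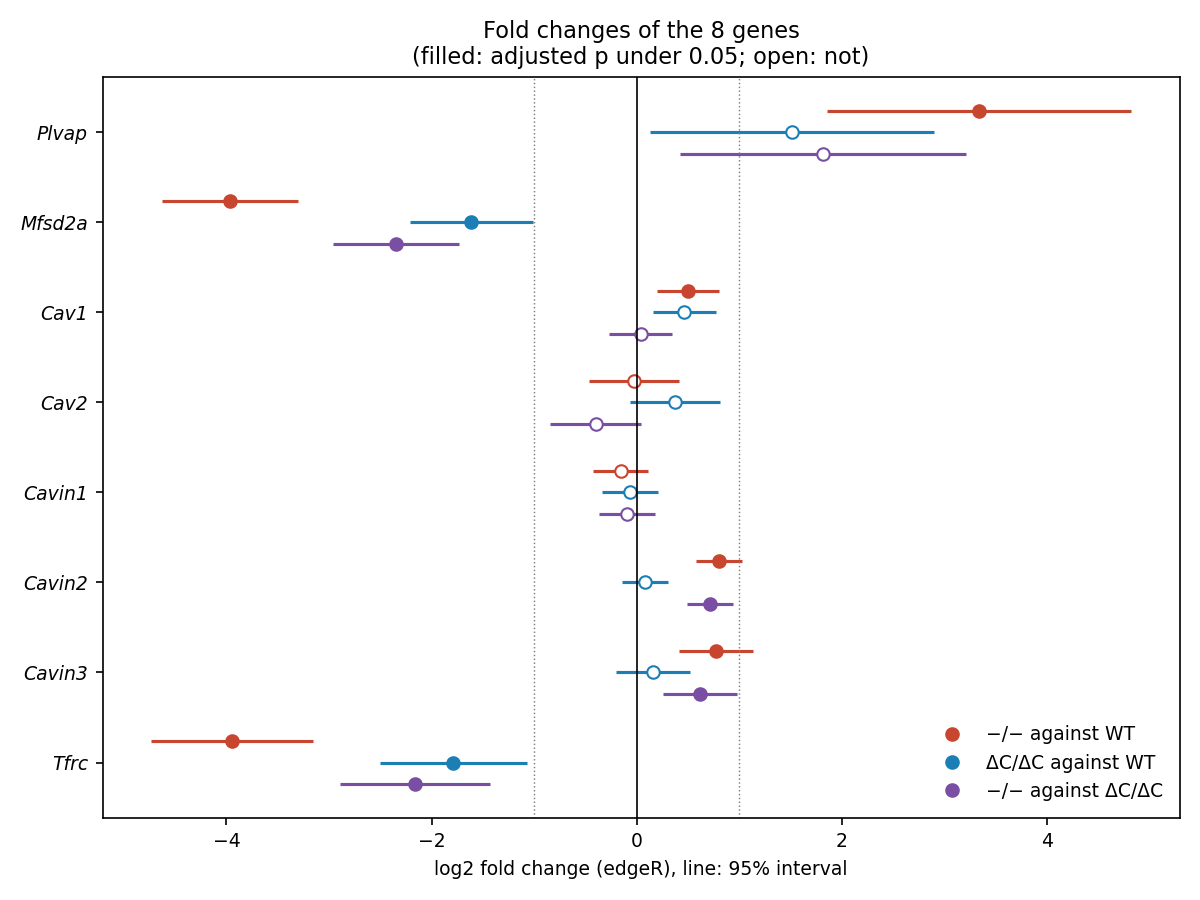
Log2 fold changes of the 8 genes from edgeR with 95% intervals (lines) for *Gpr124-/-* against wild type, *Gpr124ΔC/ΔC* against wild type and *Gpr124-/-* against *Gpr124ΔC/ΔC*; filled points have an adjusted p below 0.05, and dotted lines mark a log2 fold change of 1 in either direction. The *Plvap* intervals are the widest, and *Mfsd2a* and *Tfrc* are filled in all 3 comparisons.

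In all, 4 of the 8 genes were higher in *Gpr124-/-* than in wild type (*Plvap*, *Cav1*, *Cavin2*, *Cavin3*) and 2 were lower (*Mfsd2a*, *Tfrc*) at an adjusted p below 0.05, where 10.5% of all genes tested were higher and 9.32% lower. With a log2 fold change beyond 1 in size required as well, 1 was higher and 2 were lower, where the shares of all genes were 5.67% and 4.21%. With label letter as a covariate, 1 was higher (*Plvap*) and the same 2 were lower at an adjusted p below 0.05, where 3.63% of all genes were higher and 2.53% lower in that fit. Counts scaled to library size (CPM) of the groups did not overlap for 5 of the 8, against 22.9% of all genes. In *Gpr124ΔC/ΔC* against wild type *Mfsd2a* and *Tfrc* were lower by either rule, where 2.24% of all genes were lower at an adjusted p below 0.05 and 1.03% beyond the fold as well. The shares of genes that were higher were 1.85% and 0.89%, and 0 of the 8 were (edgeR). At an unadjusted p below 0.05 there were 2, *Plvap* and *Cav1*, against 7.25% of all genes, and the same 2 passed at an adjusted p with label letter as a covariate, against 2.53%. DESeq2 and limma on TPM gave 0 of the 8, against 2.96% and 1.47% of all genes. The groups did not overlap for 2 of the 8, against 11.3% of all genes. Between the mutants 2 were higher in *Gpr124-/-* (*Cavin2*, *Cavin3*) and 2 lower (*Mfsd2a*, *Tfrc*), where 4.93% and 3.89% of all genes were. Beyond the fold as well, 2.67% of all genes were higher and 1.94% lower; *Mfsd2a* and *Tfrc* were the 2 lower members, and 0 members were higher by edgeR or by limma on TPM (1.56% of all genes). *Plvap* was the 1 higher member at an unadjusted p, by DESeq2 and with label letter as a covariate, where 4.14%, 3.42% and 0.962% of all genes were. *Mfsd2a* and *Tfrc* did not pass in the last of these fits, where 0.295% of all genes were lower. CPM did not overlap for 5 of the 8, against 13.9% of all genes. These comparisons share samples, so they are not independent of one another.

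Other genes of the same machinery were read from lists. Of the caveola coat and neck list, 11 of 14 genes were tested, and 5 rose in *Gpr124-/-* against wild type, where 10.5% of all genes were higher; the median log2 fold change was 0.27 over the list beside −0.01 over all genes. *Cav1*, *Cavin2* and *Cavin3*, which are 3 of the 5, did not pass with label letter as a covariate, as given above. Besides *Cav1*, *Cavin2* and *Cavin3* these were *Ehd2* (0.73, SE 0.13, adjusted p = 0.00145, edgeR) and *Ehd4* (0.63, SE 0.11, adjusted p = 0.00133, edgeR), ATPases of the EHD family, of which EHD2 sits at the caveolar neck; both were chosen for naming after their values were seen. In *Gpr124ΔC/ΔC* 2 rose, *Ehd3* (0.66, SE 0.17, adjusted p = 0.0472, edgeR) and *Ehd4* (0.45, SE 0.11, adjusted p = 0.0400, edgeR), named in the same way, where 1.85% of all genes were higher. No log2 fold change of the list went beyond 1.

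Of 18 genes of clathrin endocytosis, the route of TFRC, 6 fell in *Gpr124-/-* and 1 in *Gpr124ΔC/ΔC*, where 9.32% and 2.24% of all genes were lower, and the others did not pass. The median log2 fold change was −0.07 in *Gpr124-/-* and −0.12 in *Gpr124ΔC/ΔC*. The one gene beyond a log2 fold change of −1 was *Dab2*, a clathrin adaptor, at −1.71 in *Gpr124-/-* (SE 0.20, adjusted p = 6.11e-05, edgeR) and −0.92 in *Gpr124ΔC/ΔC* (SE 0.20, adjusted p = 0.0182, edgeR). Of 21 genes of endosome and vesicle traffic, 2 fell in *Gpr124-/-*, a share close to the 9.32% of all genes that were lower, and 1 fell in *Gpr124ΔC/ΔC*, where 2.24% of all genes were lower. The larger of these was *Rab5b*, a GTPase of early endosomes, at −1.03 in *Gpr124-/-* (SE 0.11, adjusted p = 2.24e-05, edgeR) and −0.42 in *Gpr124ΔC/ΔC* (SE 0.11, adjusted p = 0.0464, edgeR).

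Of 16 receptors of transcytosis, *Tfrc* included, 15 were tested, and 7 fell and 2 rose in *Gpr124-/-*, with a median of −0.57. Of all genes 9.32% were lower and 10.5% higher, so the count that rose was near the background. In *Gpr124ΔC/ΔC* 4 fell and 1 rose, with a median of −0.26 beside 0.01 over all genes, where 2.24% of all genes were lower and 1.85% higher. *Lrp8*, a receptor for reelin and apolipoprotein E, dropped by 2.85 (log2) in *Gpr124-/-* (SE 0.24, adjusted p = 3.99e-06, edgeR) and by 1.37 in *Gpr124ΔC/ΔC* (SE 0.23, adjusted p = 0.00413, edgeR). *Cd320*, the receptor for vitamin B12 bound to transcobalamin, fell by 1.83 and 0.87 (SE 0.18 and 0.17, adjusted p = 1.04e-05 and 0.0107, edgeR). *Stab2*, a scavenger receptor for hyaluronan, was lower in *Gpr124-/-* than in *Gpr124ΔC/ΔC* by −1.85 (SE 0.51, adjusted p = 0.0420, edgeR).

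Of 17 genes of iron handling, *Tfrc* among them, 16 were tested, and 8 fell and 3 rose in *Gpr124-/-*, with a median of −0.82, where 9.32% of all genes were lower and 10.5% higher. In *Gpr124ΔC/ΔC* 6 fell and 3 rose, with a median of −0.39, where 2.24% of all genes were lower and 1.85% higher. *Steap3*, the endosomal reductase of iron released from transferrin, fell by 2.72 in *Gpr124-/-* and 1.13 in *Gpr124ΔC/ΔC* on the log2 scale (SE 0.17 and 0.16, adjusted p = 3.44e-07 and 0.00116, edgeR). *Slc40a1*, the iron exporter ferroportin, fell by 2.65 and 1.04 (SE 0.24 and 0.22, adjusted p = 5.60e-06 and 0.0181, edgeR). *Fth1*, the ferritin heavy chain of iron storage, fell by 1.94 and 1.40 (SE 0.10 for both, adjusted p = 1.69e-07 and 1.35e-05, edgeR). The members that rose beyond the fold in both mutants were *Steap4*, another metalloreductase, at 2.99 in *Gpr124-/-* and 3.24 in *Gpr124ΔC/ΔC* (SE 0.40 for both, adjusted p = 0.000171 and 0.000529, edgeR), and *Slc39a14*, an importer of zinc and of iron not bound to transferrin, at 1.97 and 1.53 (SE 0.16 for both, adjusted p = 2.34e-06 and 0.000122, edgeR). *Steap4* averaged only 2.21 CPM over all libraries and was lowest in wild type. Its fold changes and p values therefore rest on few wild-type reads. *Fth1* and *Slc39a14* were chosen for naming after their values were seen. Erythroid cells also express several genes of this list, and the part of the erythroid sums given above was not tested.

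Of 20 lipid flippases and lysolipid carriers, *Mfsd2a* among them, 4 rose and 4 fell in *Gpr124-/-*, and 2 fell in *Gpr124ΔC/ΔC*. Of all genes, 10.5% were higher and 9.32% lower in *Gpr124-/-* and 2.24% lower in *Gpr124ΔC/ΔC*. The median was 0.05 in *Gpr124-/-* and 0.04 in *Gpr124ΔC/ΔC*. *Mfsd2b*, the paralog of *Mfsd2a* that exports sphingosine-1-phosphate from red cells and platelets, was higher in *Gpr124-/-* at 2.10 (SE 0.41, adjusted p = 0.00283, edgeR), in the libraries where erythroid and platelet sums were higher. The part of erythroid and platelet RNA in the level of *Mfsd2b* was not tested. *Abca1*, the cholesterol exporter, fell by 1.69 in *Gpr124-/-* and 0.80 in *Gpr124ΔC/ΔC* (SE 0.13 for both, adjusted p = 2.39e-06 and 0.00363, edgeR). *Atp8b1*, a phospholipid flippase, rose by 1.39 in *Gpr124-/-* (SE 0.28, adjusted p = 0.00303, edgeR).

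**Figure D4:**
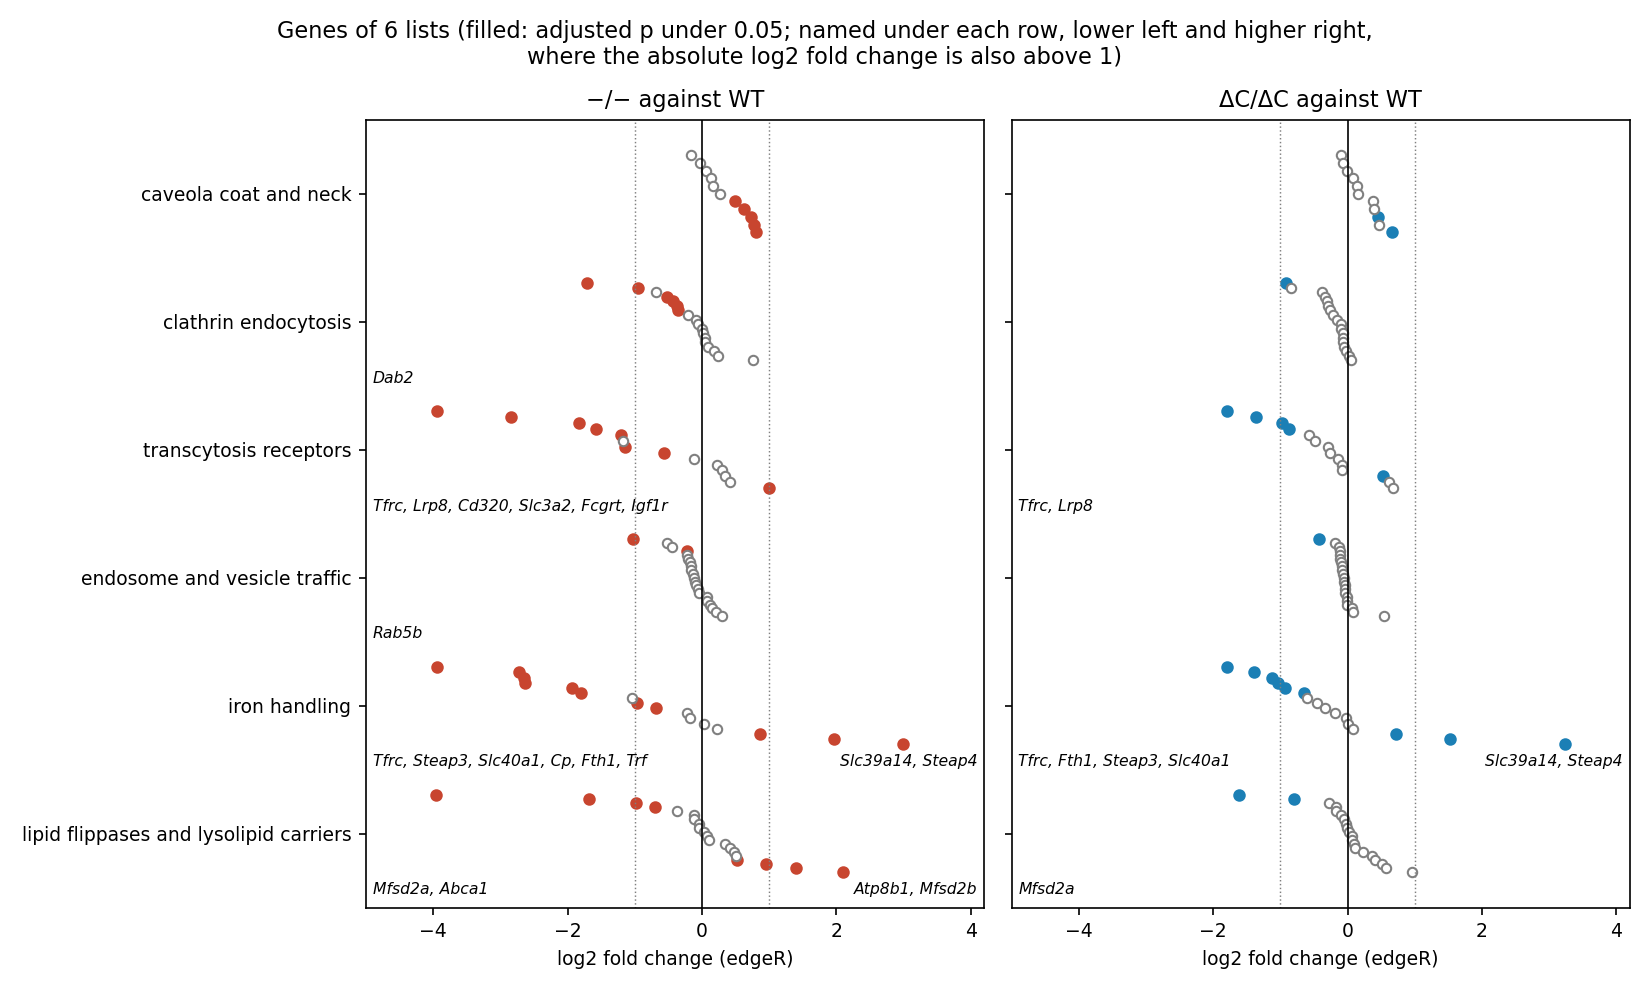
Log2 fold changes from edgeR of the tested genes of 6 lists, 1 point per gene with 1 receptor gene not shown, in *Gpr124-/-* (left) and *Gpr124ΔC/ΔC* (right) against wild type; filled points have an adjusted p below 0.05, and genes also beyond a log2 fold change of 1 in size are named under their row. The receptor and iron lists hold the filled points farthest to the left besides *Mfsd2a*, and no point of the caveola list lies beyond 1.

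The genes whose profile over the 12 libraries was most like that of *Plvap* were sought among 9981 genes by the root-mean-square difference of log2 CPM centered on the wild-type mean. These were *Sema3f* (0.35), *Dock8* (0.64), *Adam12* (0.71), *Aqp1* (0.71) and *Fzd10* (0.74). *Aqp1* is the gene of the choroid plexus list that rose in *Gpr124-/-*, against the direction of the other genes tested there. For *Mfsd2a* they included *Spock2* (0.27), *Apod* (0.31), *Angptl4* (0.35) and *Stra6* (0.40), the vitamin A receptor. The distances to the *Plvap* neighbors were larger after *Sema3f* than any named for *Mfsd2a*. These values are a description of the 12 libraries.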

How the data were processed

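RNA was extracted from sorted cells with the PicoPure kit, amplified with SMART-Seq V4, selected for poly(A) and sequenced as paired ends. The authors deposited, per embryo, raw read counts per gene and TPM values; the submitters' processing notes name mm10 and bcl2fastq 2.17, and the aligner, counter and strand setting are not given in the sources used here. Deposited TPM equalled TPM recomputed from counts and gene lengths within 0.00498% (values above 1). Gene spans were checked against GENCODE vM21, which held 49056 of the 49315 gene identifiers.

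Counts of all 12 libraries were fitted with edgeR 4.0.16 (R 4.3.3), genotype as the single term, filterByExpr defaults (count minimum 10, total minimum 15), TMM factors (0.946 to 1.04) and the quasi-likelihood test. P-values were adjusted by Benjamini-Hochberg over 16637 genes, and a call needed an adjusted p below 0.05 and, after the study, a log2 fold change beyond 1 in size. SE was the log2 fold change divided by the root of F. Replicates are separate embryos. Scripts were tested on simulated data. Alternatives used DESeq2 1.42.0, limma 3.58.1 on log2(TPM + 1) or log2(TPM + 0.1), other filters and factors, label letter as a covariate, and each library left out. A fit of TPM without *Gm23935*, one without the J libraries and the contrast of L with J were added after seeing the data. Members and lists were chosen with earlier results of these data known. Genes named besides the 8 members were, per pathway list, at most the 4 called genes with the largest absolute log2 fold change, and the 5 genes most like *Plvap* or *Mfsd2a* with a mean CPM of at least 8 (log2 CPM with a prior count of 2); exceptions are stated, and some genes that this rule names are not reported here. Promoter sequences came from RefSeq (GRCm38.p6) and motifs were matched by exact letters.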

Additional observations from a re-analysis of the deposited data

Results flagged for a closer look

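In groups of 4 embryos, a highest or lowest value far from the other 3 was sought by Dixon's test for the 8 genes in 3 genotypes, 24 groups in all, of which chance marks about 1 in 20. Both values found came from *Gpr124-/-* embryo ME5. *Cav2* was at 121.29 TPM there against 235 to 253 TPM in the other *Gpr124-/-* embryos, a gap of 0.865 of the range. *Cavin3* was at 547.58 TPM against 418 to 423 TPM, a gap of 0.957 of the range. Without ME5 the log2 fold change of *Cav2* in *Gpr124-/-* against wild type was 0.17 in place of −0.03, and neither passed the test.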

How the results depend on the processing

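Across 24 alternatives, the log2 fold changes of *Plvap*, *Mfsd2a* and *Tfrc* in *Gpr124-/-* against wild type kept their direction and their side of the threshold (3.02 to 4.74, −4.14 to −3.58 and −4.20 to −3.74). With label letter as a covariate, *Plvap* was 1.35 in *Gpr124ΔC/ΔC* against wild type (adjusted p = 3.12e-05, now past the threshold) and 2.96 between the mutants (adjusted p = 0.00120, now past), and *Mfsd2a* between the mutants was −1.83 (adjusted p = 0.124). DESeq2 gave *Plvap* 1.83 between the mutants (adjusted p = 0.0419), and without the J libraries it was 3.32 (adjusted p = 0.00105), while *Mfsd2a* in *Gpr124ΔC/ΔC* was −1.35 (adjusted p = 0.172); leaving out these libraries also leaves 2 embryos each of wild type and *Gpr124ΔC/ΔC*. *Tfrc* in *Gpr124ΔC/ΔC* did not pass in limma without a filter (−1.77, adjusted p = 0.0662, from 2.65e-06 over the alternatives). Of the 8 members, 3 were called in *Gpr124-/-* against wild type (6 without the fold threshold), 2 between the mutants (4 without the fold threshold, 1 with the letter) and 2 in *Gpr124ΔC/ΔC* against wild type (1 with limma without a filter, 1 without the J libraries). All genes called numbered 1644 in *Gpr124-/-* against wild type (3295 without the fold threshold, 846 with the letter) and 320 in *Gpr124ΔC/ΔC* (680 without the fold threshold, 201 with limma without a filter, 148 without the J libraries). Between the mutants 766 were called, against 1468 without the fold threshold, 209 with the letter, 470, 509 and 395 with limma on log2(TPM + 1), on log2(TPM + 0.1) and without a filter, 477 without *Gm23935*, 1465 without the J libraries and 506 (without ME5) to 1008 (without KE4) with 1 library left out. Apart from the fold threshold, the cause was not tested.

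Signs turned for 4 values, none of which passed the test. *Cav1* between the mutants (0.04) was −0.19 with the letter, −0.0056 in limma on TPM at both pseudocounts and without a filter, −0.044 without *Gm23935*, −0.087 without the J libraries and −0.048 to 0.16 with 1 library left out. *Cavin1* in *Gpr124ΔC/ΔC* (−0.06) was 0.030 in limma on TPM at both pseudocounts and without a filter, 0.032 without *Gm23935*, 0.056 without the J libraries and −0.14 to 0.065 with 1 left out. *Cav2* in *Gpr124-/-* (−0.03) was −0.11 to 0.17 with 1 left out, and *Cavin3* in *Gpr124ΔC/ΔC* was −0.086 without the J libraries. Replicate numbers only name samples and pair none of them, so the blocks used were the label letters. Each genotype has 4 embryos, and the letter fit compares *Gpr124-/-* with wild type through 1 pair.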
